A study of Homo sapiens with 9 samples.

Results

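Metallothioneins are small cysteine-rich proteins that bind zinc, copper and cadmium. When free zinc in the cytosol rises, the zinc-finger factor MTF1 binds metal response elements and switches on the *MT1* and *MT2A* genes together with *SLC30A1*, which encodes the zinc exporter of the plasma membrane. *SLC39A10* encodes a zinc importer whose transcription is known to be lowered by MTF1, so this set of genes is commonly read as a gauge of metal load. Metallothionein genes are also known to respond to oxidative stress and glucocorticoids.

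The genes described here are 10 rows of the gene count table, chosen by symbol, of 59452 rows in all. They comprise 7 metallothioneins (*MT1E*, *MT1F*, *MT1G*, *MT1M*, *MT1X*, *MT2A* and *MT3*), the sensor *MTF1*, the exporter *SLC30A1* and the importer *SLC39A10*. The rule names symbols and uses no measured value, although the symbols were picked with earlier results of these data known. The study cultured MDA-MB-453, an established breast cancer cell line labelled triple-negative and wild type, in DMEM with 10% FBS for 48 hours. It had 3 groups of 3 libraries. These were attached cells given vehicle (DMSO), cells held in forced suspension on poly-HEMA-coated plates and given vehicle, and suspended cells given 10 µmol/L AT-0174, a dual inhibitor of the tryptophan-degrading enzymes TDO2 and IDO1. Suspension and drug were therefore compared in 1 cell line, and attached cells given AT-0174 were not analysed here.

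The 9 libraries held 36649997 to 48019126 estimated counts each. The luminal epithelial markers *KRT8*, *KRT18*, *KRT19*, *EPCAM*, *FOXA1* and *GATA3* were all 6 expressed. Of the receptors behind the triple-negative label, *ESR1* averaged 1.44 counts and *PGR* 13.3 counts a library, whereas *ERBB2* lay between 1029 and 1082 CPM, a depth-scaled count that uses edgeR's TMM factors. Reads from the mitochondrial genome took 7.56 to 9.32% of counts in attached cells, 4.05 to 4.34% in suspended vehicle cells and 3.73 to 5.51% with AT-0174. In suspended vehicle cells 2 of these 6 luminal markers were called higher than in attached cells, beside 10.4% of all tested genes. The 6 markers summed to 4685 to 4805 CPM, against 4400.4 to 4543 CPM in attached cells. Of 4 fibroblast markers only *COL1A1* passed the filter on low counts. It was called lower in suspended vehicle than in attached cells (log2 fold change −0.28), and *DCN*, a defining marker of fibroblasts, was 0 in every library. The share of these differences in the results below was not tested, and in bulk RNA fewer cells of a type and less RNA per cell cannot be told apart.

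The metallothionein genes lie in a cluster on chromosome 16, and their use in these cells was very uneven. Positions are in GRCh38, with *MT2A* (ENSG00000125148) at chr16:56608584-56609497 and *MT1X* (ENSG00000187193) at chr16:56682470-56684196. Between them, *MT1F* (ENSG00000198417) is at chr16:56657731-56660698, and all 3 genes are on the plus strand. *MT2A* had 8148 to 10048 estimated counts in a library. *MT1X* had 178 to 277 counts and *MT1F* 89 to 172 counts. *MT1E*, which lies between *MT2A* and *MT1F*, had 1 to 7 counts. *MT1G* had 1 count in suspended vehicle library 1 and 0 in the other libraries, and *MT1M* and the brain-enriched *MT3* had 0 in all 9. A count of 0 allows up to 3 counts, which is 0.0625 to 0.0819 CPM in these libraries. The remaining protein-coding family members *MT1A*, *MT1B*, *MT1H*, *MT1HL1* and *MT4* were also at 0 in all 9 libraries. Of 8 pseudogenes, 6 were at 0 and the others had at most 2 counts in any library. *MT2A*, *MT1X*, *MT1F* and, at a few counts, *MT1E* were thus read in all 9 libraries, and no metallothionein gene with 0 counts in attached cells exceeded 1 count in a suspended library.

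**Figure D1:**
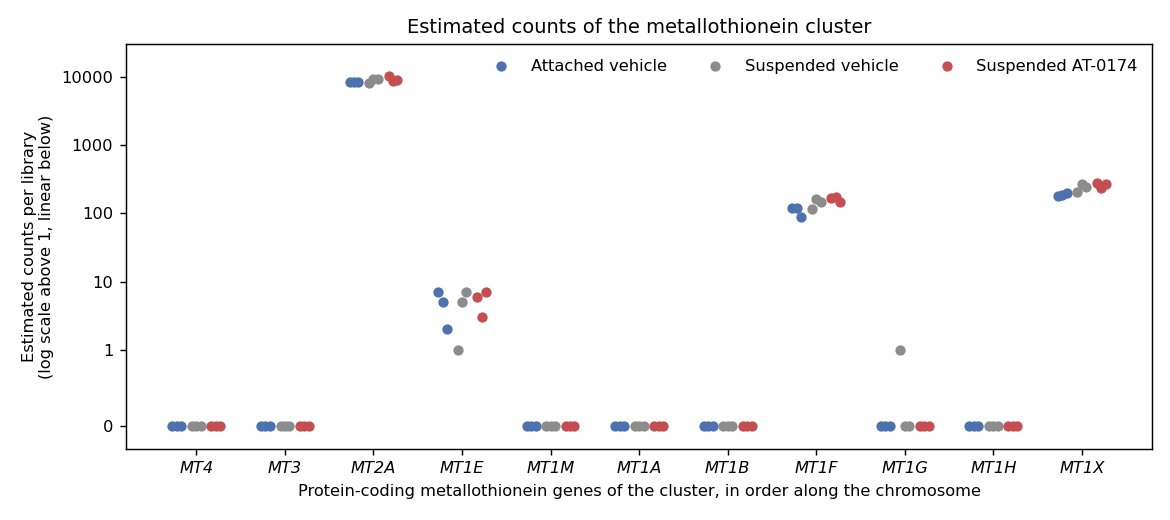
Estimated counts in each of the 9 libraries (y axis, log scale above 1 and linear below) for the 11 protein-coding metallothionein genes of chromosome 16 in chromosomal order (x axis), with 1 point per library coloured by group. *MT2A* stands at 8148 to 10048 counts, *MT1X* and *MT1F* between 89 and 277, *MT1E* at 1 to 7, and the other genes at 0 apart from a single *MT1G* count.

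On a scale per transcript length, *MT2A* averaged 1256 ± 71.1 TPM (a depth- and length-scaled level, SD, n = 3) in attached cells. It averaged 1277 ± 19.0 TPM in suspended vehicle cells and 1204 ± 29.7 TPM with AT-0174, which placed it at rank 89 of 59452 genes by mean TPM. *MT2A* made up 96.3 to 97.1% of the summed TPM of the protein-coding metallothioneins. *MT1X* supplied 2.02 to 2.68% and *MT1F* 0.643 to 0.985%. The main transcripts of *MT2A* and *MT1X* are 401 and 404 bases long, so these TPM values rest on the fragment length correction for short transcripts. By transcript, ENST00000245185 held 97.9% of the *MT2A* counts and ENST00000394485 held 95.1% of those of *MT1X*. *MT1F* was divided between ENST00000334350 of 425 bases, with 50.7% of its counts, and ENST00000564295 of 1573 bases, with 48.3%. The sensor and transporters were at moderate levels. *MTF1* averaged 12.1 ± 1.71 TPM in attached cells, *SLC30A1* 8.65 ± 0.254 TPM and *SLC39A10* 4.23 ± 0.419 TPM. In attached cells the order by TPM was therefore *MT2A*, *MT1X*, *MTF1*, *MT1F*, *SLC30A1* and *SLC39A10*. The libraries of the neighbours *MTF1* and *MT1F*, and of *MT1F* and *SLC30A1*, overlapped in this order. In suspended vehicle cells *MTF1* averaged 12.8 ± 1.49 TPM, *SLC30A1* 11.2 ± 0.631 TPM, *MT1F* 11.1 ± 1.79 TPM and *SLC39A10* 5.85 ± 0.259 TPM. The libraries of *MTF1*, *SLC30A1* and *MT1F* overlapped there. With AT-0174 *MTF1* averaged 11.9 ± 0.734 TPM, *MT1F* 11.7 ± 0.469 TPM, *SLC30A1* 10.6 ± 0.523 TPM and *SLC39A10* 5.38 ± 0.741 TPM, with *MTF1* and *MT1F* overlapping. Coding metallothioneins have closely similar sequences, so the division of reads among them is uncertain, and their sum was tested as well.

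The promoters are shown because they hold the elements through which zinc acts on these genes. The letters are the 250 bases before the RefSeq start site (GRCh38.p14), written 5′ to 3′ on the strand of the gene. Capitals mark the metal response element core, TGCACNC or TGCGCNC, on either strand. Of the 10 genes, 5 had an entry (*MT2A*, *MT1X*, *MTF1*, *SLC30A1* and *SLC39A10*). *MT2A* and *MT1X* are the 2 most abundant metallothioneins of these cells, *MT1H* is a neighbour with no counts, and *SLC30A1* is the exporter.
MT2A, chr16:56608334-56608583, plus strand: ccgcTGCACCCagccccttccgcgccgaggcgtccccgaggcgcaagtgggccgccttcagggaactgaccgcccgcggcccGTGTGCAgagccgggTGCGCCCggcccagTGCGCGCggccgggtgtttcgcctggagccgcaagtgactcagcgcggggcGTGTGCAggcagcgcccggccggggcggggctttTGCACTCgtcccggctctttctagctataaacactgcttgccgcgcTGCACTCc
MT1X, chr16:56682220-56682469, plus strand: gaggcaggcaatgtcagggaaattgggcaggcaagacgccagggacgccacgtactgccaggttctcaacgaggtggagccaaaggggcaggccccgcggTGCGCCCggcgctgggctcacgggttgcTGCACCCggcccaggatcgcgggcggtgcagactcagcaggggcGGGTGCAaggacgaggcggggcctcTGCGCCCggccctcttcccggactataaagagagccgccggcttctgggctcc
MT1H, chr16:56669564-56669813, plus strand: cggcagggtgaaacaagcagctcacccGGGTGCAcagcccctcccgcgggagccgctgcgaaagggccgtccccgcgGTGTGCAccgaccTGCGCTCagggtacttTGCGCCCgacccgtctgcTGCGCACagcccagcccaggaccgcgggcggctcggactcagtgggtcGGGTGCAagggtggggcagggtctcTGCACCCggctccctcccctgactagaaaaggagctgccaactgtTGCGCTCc
SLC30A1, chr1:211579162-211579411, minus strand: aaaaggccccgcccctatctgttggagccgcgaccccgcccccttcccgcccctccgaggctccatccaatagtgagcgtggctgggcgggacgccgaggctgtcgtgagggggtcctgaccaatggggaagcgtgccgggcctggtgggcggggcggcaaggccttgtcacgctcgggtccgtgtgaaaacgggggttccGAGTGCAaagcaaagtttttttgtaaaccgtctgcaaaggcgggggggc
The *MT2A* window held 7 matches, and 0.031% of 35116 promoter windows of this length held as many or more. The match nearest to the start of *MT2A* lay 8 to 2 bases before it. *MT1X* held 4 matches (0.37% of windows held as many or more). *MT1H* held 8 (0.017% of windows) and yet had 0 counts in every library, so the number of cores in this window did not follow the counts across these 3 genes. The windows of *MT1B* and *MT4*, not printed here, held 3 matches each, and both genes were also at 0 in all 9 libraries. *SLC30A1* held 1 match, 49 to 43 bases before its start on the opposite strand, as did 24.8% of windows with at least 1. No match was found in the *MTF1* window or in either *SLC39A10* window, which says only that these letters are absent there. The antioxidant response element core TGACNNNGC, through which NRF2 acts, had 1 match each in the *MT2A*, *MT1X* and *SLC30A1* windows, and 10.9% of all windows held at least 1. A match is a description of sequence and not of binding.

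The first comparison, suspended against attached cells with vehicle, asks which genes change when cells lose attachment. No metallothionein passed the test, and the zinc exporter *SLC30A1* rose. By edgeR's quasi-likelihood test with Benjamini-Hochberg adjustment over 15528 genes, 21.2% of all tested genes were called at an adjusted p under 0.05, and 10.4% were called higher. Of the 10 genes, 6 passed the filter on low counts, and 1 of these 6, *SLC30A1*, was called. The median log2 fold change of the 6 was 0.18, against −0.0003 over all genes tested.

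*MT2A* stood at 217, 233 and 214 CPM in the attached libraries. It stood at 211, 213 and 210.4 CPM in the suspended vehicle libraries, all below the attached ones. The highest attached value belonged to library 2 and the suspended values lay within a narrow range. The log2 fold change was −0.07 ± 0.04 (SE; 95% interval −0.14 to 0.01) with an adjusted p of 0.200 by edgeR, so the difference did not pass the test. Without attached library 2 the log2 fold change was −0.03 (adjusted p = 0.612, edgeR). The order of the groups depended on the scale. In TPM their libraries overlapped, and the mean was 1256 in attached cells and 1277 in suspended vehicle cells. With counts rebuilt from TPM and scaled by TMM the log2 fold change was again −0.07.

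*MT1X* measured 4.65, 5.09 and 5.18 CPM in attached cells and 5.30, 6.05 and 5.60 CPM in suspended vehicle cells. All 3 suspended values lay above all 3 attached values, which is the opposite order to that of *MT2A* in CPM. The log2 fold change of 0.19 ± 0.09 (95% interval −0.02 to 0.39) had an adjusted p of 0.179 by edgeR. *MT1F* measured 3.14, 3.26 and 2.29 CPM in attached cells and 2.95, 3.65 and 3.30 CPM in suspended vehicle cells. These groups overlapped, with attached library 3 lowest, and the log2 fold change was 0.19 ± 0.16 (adjusted p = 0.433, edgeR). Without attached library 3 it was 0.05, without suspended vehicle library 2 it was 0.11, and with counts rebuilt from TPM it was 0.08.

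The summed *MT1* and *MT2A* row, which does not depend on how reads were divided among the *MT1* genes and *MT2A*, gave 225, 241 and 222 CPM in attached cells. It gave 219, 222 and 219 CPM in suspended vehicle cells. The groups overlapped, and the fold change was 0.961 (95% interval 0.911 to 1.01) with an adjusted p of 0.275 by edgeR. The interval leaves room for a fall of several percent, and its upper end is a fold of 1.01. Without attached library 2 the log2 fold change of the sum went from −0.06 to −0.02 (adjusted p = 0.756, edgeR).

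*MTF1* (ENSG00000188786, chr1:37809574-37859592, minus strand), the sensor, hardly varied. It measured 59.7, 58.7 and 58.2 CPM in attached cells and 60.1, 59.0 and 59.1 CPM in suspended vehicle cells. The groups overlapped and the log2 fold change was 0.01 ± 0.03 (95% interval −0.06 to 0.09), with an adjusted p of 0.837 by edgeR. Levels of *MTF1* RNA do not measure the zinc-dependent activity of the protein.

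*SLC30A1* (ENSG00000170385, chr1:211571568-211579161, minus strand) measured 35.9, 36.9 and 35.7 CPM in attached cells. It measured 41.4, 43.8 and 44.7 CPM in suspended vehicle cells, all above the attached libraries. The rise was 1.20-fold (95% interval 1.12 to 1.28, adjusted p = 0.00184, edgeR), or 0.26 ± 0.04 on the log2 scale. It kept its call in all 15 alternative analyses. This was the largest log2 fold change among the 6 tested genes, and also the only one called.

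*SLC39A10* (ENSG00000196950, chr2:195575977-195737702, plus strand) measured 12.6, 14.7 and 14.7 CPM in attached cells and 15.6, 16.0 and 16.0 CPM in suspended vehicle cells. The groups did not overlap, and attached library 1 was the lowest. The log2 fold change was 0.18 ± 0.06 (95% interval 0.05 to 0.32) with an adjusted p of 0.0545 by edgeR, just outside the threshold. Over the 15 alternatives the adjusted p ran from 0.0478 to 0.180. Without attached library 1 the log2 fold change was 0.11 (adjusted p = 0.180, edgeR). It passed in 2 alternatives, with 0.22 without attached library 2 (adjusted p = 0.0495, edgeR) and 0.37 with counts rebuilt from TPM (adjusted p = 0.0478, edgeR). Exporter and importer thus lay in the same direction in suspension, although the importer missed the threshold.

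**Figure D2:**
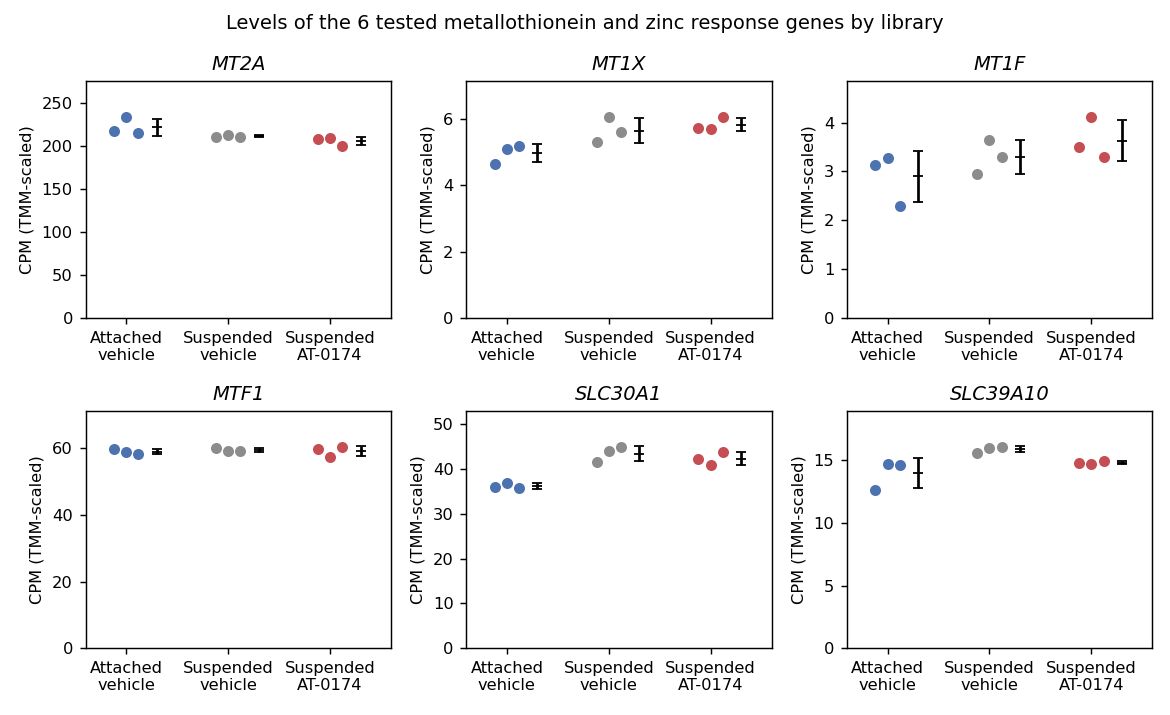
TMM-scaled CPM (y axis, linear from 0) of the 6 tested genes in each library, grouped by condition (x axis), with black bars for the mean ± SD of 3 libraries. *SLC30A1* lies at 35.7 to 36.9 CPM in attached cells and at 40.8 to 44.7 CPM in both suspended groups, whereas *MTF1* stays between 57.3 and 60.1 CPM.

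The second comparison, AT-0174 against vehicle in suspended cells, asks what the drug changes in suspension. None of the 6 tested genes was called by edgeR, none had an unadjusted p under 0.05, and DESeq2 and limma-voom called none either. Across all genes 0.779% were called, 0.522% as higher. The median log2 fold change of the 6 was −0.02, against 0.0013 over all genes tested.

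*MT2A* measured 208, 208 and 200.1 CPM with AT-0174, all below the 3 suspended vehicle libraries given above. The fold change was 0.973, or −0.04 ± 0.04 on the log2 scale, with an adjusted p of 0.824 by edgeR. *MT1X* measured 5.74, 5.68 and 6.05 CPM with AT-0174, within the spread of the vehicle libraries (log2 fold change 0.04 ± 0.09, adjusted p = 0.943, edgeR). *MT1F* measured 3.50, 4.11 and 3.29 CPM, again overlapping with vehicle (log2 fold change 0.14 ± 0.15, adjusted p = 0.869, edgeR).

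The summed *MT1* and *MT2A* row gave 217, 218 and 209.6 CPM with AT-0174, slightly below the vehicle libraries. The fold change was 0.977, and its 95% interval ran from 0.926 to 1.03 (adjusted p = 0.852, edgeR). No rise of metallothionein RNA with the drug was therefore detectable, and rises beyond 1.03-fold lie outside that interval.

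*MTF1* stood at 59.5, 57.3 and 60.1 CPM with AT-0174 and *SLC30A1* at 42.2, 40.8 and 43.7 CPM. Both overlapped with suspended vehicle cells. The log2 fold change of *SLC30A1* was −0.04 ± 0.04 (95% interval −0.13 to 0.05, adjusted p = 0.863, edgeR), and that of *MTF1* was −0.01 ± 0.03 (adjusted p = 0.970, edgeR). *SLC39A10* measured 14.8, 14.7 and 14.9 CPM with AT-0174, all below the suspended vehicle libraries. Its log2 fold change was −0.10 ± 0.06 (95% interval −0.23 to 0.03, adjusted p = 0.688, edgeR), which did not pass the test.

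Genes regulated by NRF2, the factor that answers oxidative and electrophilic stress, are given beside the metal genes because both programs can respond to the same agents. This list was drawn up with its rise under AT-0174 already known, so its direction is a description. By edgeR, AT-0174 raised 13 of 15 tested NRF2 targets in suspended cells and lowered none, with a median log2 fold change of 0.56. Of all tested genes 0.522% were called higher. With counts rebuilt from TPM 10 of the 15 targets were called, all higher, and *SLC7A11*, *GCLC* and *SQSTM1* lost their calls. *NQO1*, a quinone reductase, went from 736 ± 9.28 CPM in suspended vehicle cells to 1277 ± 43.2 CPM with AT-0174 (SD, n = 3). Its log2 fold change was 0.79 ± 0.03. *FTH1*, the ferritin heavy chain that stores iron, rose by 0.69 ± 0.03 on the log2 scale, though its many pseudogenes make its read assignment uncertain. *SLC7A11*, the cystine importer that feeds glutathione synthesis, rose by 0.65 ± 0.04. *HMOX1*, the heme-degrading oxygenase, measured 35.9, 37.0 and 38.5 CPM with vehicle and 76.2, 68.3 and 78.3 CPM with AT-0174, a log2 fold change of 1.00 ± 0.06. The 2 tested targets that were not called were *FTL*, the ferritin light chain, with a log2 fold change of 0.04 (95% interval −0.03 to 0.10), and *AKR1C1*, an aldo-keto reductase, with 0.79 (95% interval 0.22 to 1.36). Both are named outside the rule, after their values were seen. The 95% interval of the summed metallothioneins in this comparison, −0.11 to 0.04, overlapped with that of *FTL*.

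Suspension alone gave no common direction in the NRF2 list, with 3 of 15 genes higher and 3 lower (median log2 fold change −0.03), beside 21.2% of all tested genes called. Without attached library 3 there were 1 higher and 2 lower. *SLC7A11* rose by 0.56 ± 0.04 on the log2 scale, while *HMOX1* fell by 0.37 and *SLC48A1*, a heme transporter, fell by 0.17. The 2 comparisons share the suspended vehicle libraries, so their values are only set side by side.

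**Figure D3:**
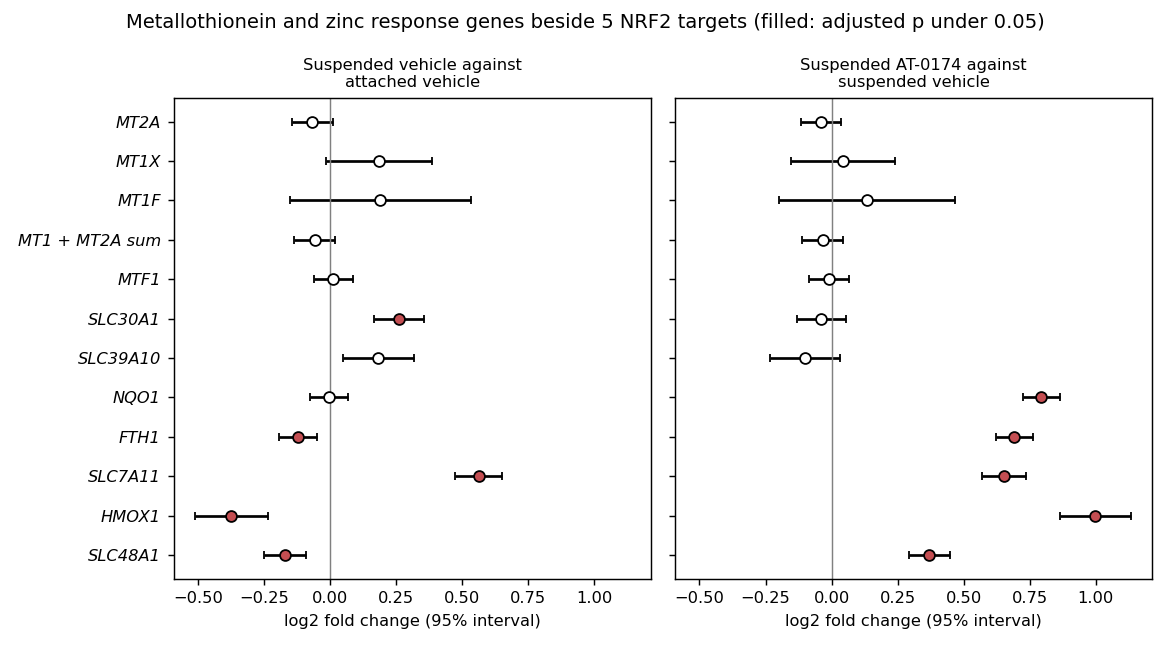
log2 fold changes with 95% intervals (x axis) of the 6 tested genes, the summed *MT1* and *MT2A* row and 5 NRF2 targets (y axis), for suspended against attached vehicle cells (left) and AT-0174 against vehicle in suspended cells (right); filled points have an edgeR adjusted p under 0.05. On the right the metal genes lie near 0, whereas 4 of the 5 NRF2 targets shown in both panels have a lower interval end of 0.57 or more.

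The third comparison set suspended AT-0174 cells against attached vehicle cells, so that culture and drug differ together. Of all genes 24.0% were called, and 2 of the 6 tested genes were. *SLC30A1* was again higher (1.17-fold, log2 fold change 0.22 ± 0.04, adjusted p = 0.00318, edgeR). *MT2A* was lower, with a fold change of 0.929 and a log2 fold change of −0.11 ± 0.04 (adjusted p = 0.0450, edgeR). In CPM all 3 treated libraries lay below all 3 attached ones, whereas in TPM AT-0174 library 1 (1239) lay above attached library 3 (1188). The *MT2A* call was lost in 9 of 15 alternatives, and without attached library 2 the log2 fold change was −0.07 (adjusted p = 0.185, edgeR). Leaving out attached library 1 gave an adjusted p of 0.0573, and leaving out AT-0174 library 1, 2 or 3 gave 0.0843, 0.0696 or 0.144 by edgeR. *MT1X* and *MT1F* lay the other way, with every treated library above every attached one and log2 fold changes of 0.23 ± 0.09 and 0.33 ± 0.16. Neither passed (adjusted p = 0.0917 and 0.153, edgeR). For *MT1F* the value was 0.18 without attached library 3 and 0.19 with counts rebuilt from TPM. The summed row was not called either (log2 fold change −0.09 ± 0.04, adjusted p = 0.0788, edgeR), and without attached library 2 it stood at −0.05. *SLC39A10* had a log2 fold change of 0.08 (adjusted p = 0.370, edgeR; 0.01 without attached library 1 and 0.29 with counts rebuilt from TPM) and *MTF1* of 0.00 (adjusted p = 0.965, edgeR).

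The rest of the zinc transport system was read from lists of the SLC30A and SLC39A genes. Most SLC30A proteins move zinc out of the cytosol and most SLC39A proteins move it in, so the lists are called exporters and importers here. Of 10 exporters 6 were tested, and in suspended vehicle cells 3 were higher than in attached cells and none lower. Their median log2 fold change was 0.11, and 10.4% of all tested genes were called higher in this comparison. Beside *SLC30A1* these were *SLC30A4*, a vesicular transporter, and *SLC30A7*, a transporter of the Golgi. *SLC30A4* measured 13.3, 16.5 and 15.9 CPM in attached cells and 18.3, 19.6 and 18.3 CPM in suspended vehicle cells, with no overlap. Its log2 fold change was 0.30 ± 0.07 (adjusted p = 0.0120, edgeR). *SLC30A7* had a log2 fold change of 0.15 ± 0.05 (adjusted p = 0.0414, edgeR), also without overlap. Without suspended vehicle library 2, with counts rebuilt from TPM, or at a threshold of 0.01, only *SLC30A1* of the exporters was called. Leaving out attached library 1, attached library 3 or suspended vehicle library 3 left 2 called.

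Of 14 importers 11 were tested, and 2 were higher and 2 lower in suspended vehicle cells, beside 21.2% of all tested genes called in either direction. *SLC39A9*, which encodes ZIP9, measured 163, 156 and 156 CPM in attached cells and 181, 186 and 181 CPM in suspended vehicle cells. It was called with a log2 fold change of 0.21 ± 0.03 (adjusted p = 0.00189, edgeR) and remained called in every alternative. *SLC39A1*, a plasma membrane importer, fell by 0.12 on the log2 scale (adjusted p = 0.0227, edgeR), from 303 ± 4.99 to 279 ± 8.89 CPM (SD, n = 3). *SLC39A13*, of the early secretory pathway, fell by 0.25 (adjusted p = 0.0242, edgeR). The fourth, *SLC39A14*, had a log2 fold change of 0.18 (adjusted p = 0.0435, edgeR). It is outside the naming rule of 3 genes per list and was added after its values were seen. *SLC39A14* was not called by DESeq2 or limma-voom, with 6 libraries, with counts rebuilt from TPM, or with any library left out. With counts rebuilt from TPM *SLC39A1* was not called either, and at a threshold of 0.01 only *SLC39A9* was. Without suspended vehicle library 2, or without attached library 1, *SLC39A9* was the only importer called. Without attached library 2, attached library 3, suspended vehicle library 1 or suspended vehicle library 3, 2 to 3 importers were called. The called importers thus had no single direction. The median log2 fold change of the 11 was 0.09, with 8 of them above 0, and that of the exporters was 0.11.

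With AT-0174, none of the 6 exporters and none of the 11 importers was called against suspended vehicle cells by edgeR, DESeq2 or limma-voom. By edgeR only 0.779% of all tested genes were called in this comparison. At an unadjusted p under 0.05 the counts of exporters and importers were 0 and 1. The median log2 fold changes were −0.0024 and −0.0032. Against attached vehicle cells, suspended AT-0174 cells had 2 exporters higher, *SLC30A1* and *SLC30A5* (log2 fold change 0.12, adjusted p = 0.0396, edgeR), together with *SLC39A9* higher and *SLC39A1* lower. In that comparison 24.0% of all tested genes were called. *SLC30A1* and *SLC39A9* were called in every alternative. *SLC30A5* was not called without attached library 2 or 3, without AT-0174 library 1 or 2, with the replicate number as a block, with counts rebuilt from TPM or at a threshold of 0.01. Without attached library 3, or AT-0174 library 1 or 2, *SLC30A1* was the only exporter called. *SLC39A1* was not called without attached library 1 or 2, without AT-0174 library 2 or 3, with counts rebuilt from TPM or at a threshold of 0.01.

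**Figure D4:**
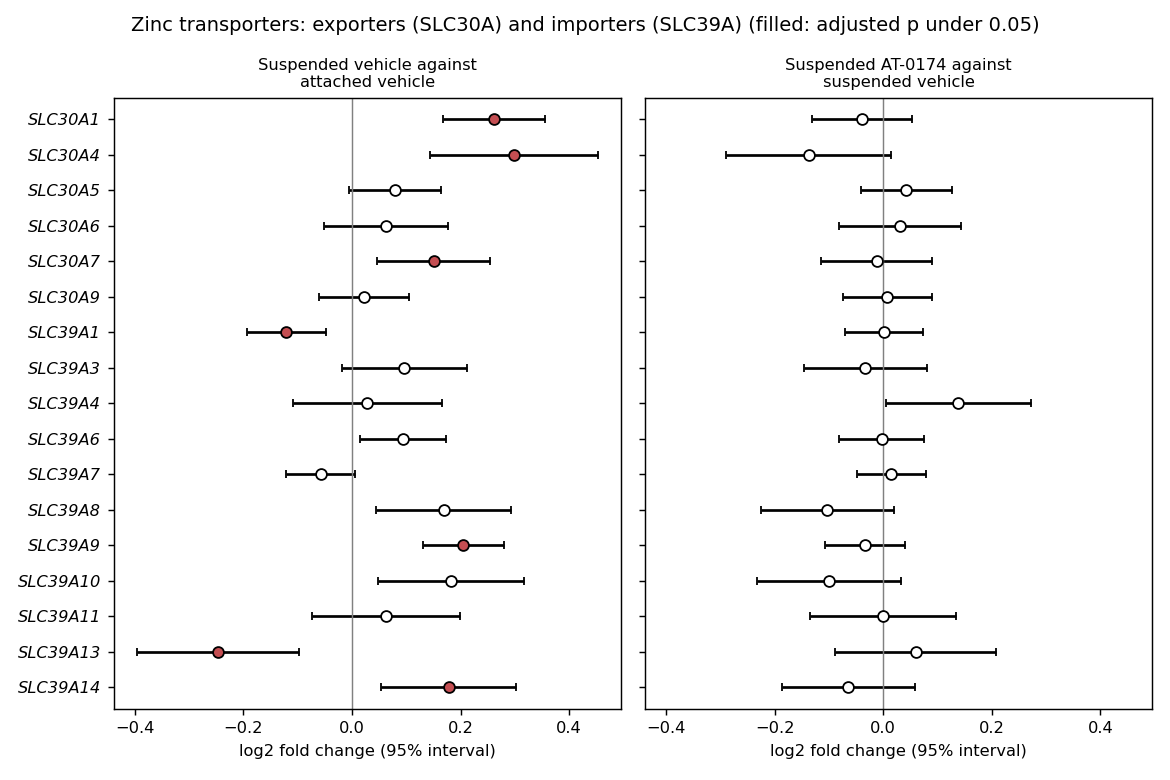
log2 fold changes with 95% intervals (x axis) of the 6 tested SLC30A exporters and 11 tested SLC39A importers (y axis) in suspended against attached vehicle cells (left) and in AT-0174 against vehicle in suspended cells (right); filled points have an edgeR adjusted p under 0.05. On the left 3 exporters and 4 importers are filled, 2 of the importers being lower, and on the right no point is filled.

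Copper handling and heat shock genes were read in the same way. Of 10 copper handling genes, 2 were higher and 1 lower in suspended vehicle cells by edgeR, beside 21.2% of all tested genes called in either direction. *COX17*, the copper chaperone of cytochrome c oxidase, had a log2 fold change of 0.29, *SCO2*, of the same oxidase's assembly, had 0.18, and *CCS*, the copper chaperone for superoxide dismutase, had −0.19. *COX17* was called in every alternative, and it was the only one called without attached library 2 or 3 or without suspended vehicle library 2 or 3, while without suspended vehicle library 1 *SCO2* was lost. With AT-0174 none of the 10 was called against suspended vehicle cells by edgeR, DESeq2 or limma-voom. By edgeR 0.779% of all tested genes were called there, and 2 of the 10 had an unadjusted p under 0.05. Against attached cells, *COX17* (0.33) and *ATP7A* (0.27), a copper-exporting ATPase, were higher in suspended AT-0174 cells. With counts rebuilt from TPM only *COX17* was called in both comparisons with attached cells. Of 12 heat shock genes, 2 were higher and 3 lower in suspended vehicle cells, again beside 21.2% of all tested genes. Among them were *HSPB1* with a log2 fold change of 0.42, *HSPA1B* with −0.20 and *HSPD1* with 0.13. *HSPB1* and *HSPA1B* were called in every alternative, and they were the only ones called without attached library 3. Without attached library 1 or suspended vehicle library 2, 3 were called. *HSPA1B* has a near-identical copy in *HSPA1A*, so its reads may be divided. None of the 12 was called with AT-0174 against suspended vehicle cells by edgeR or limma-voom, again beside 0.779% of all tested genes by edgeR. DESeq2 called 1 of the 12, and 2 had an unadjusted p under 0.05 by edgeR. Against attached cells 4 heat shock genes were higher and 2 lower in suspended AT-0174 cells, and 3 in all were called without attached library 3 or without any AT-0174 library. Over all tested genes 24.0% were called in that comparison.

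Across the 9 libraries the 6 tested genes did not move as a unit. In log2 CPM the Pearson r between *MT1X* and *SLC30A1* was 0.86, while that between *MT2A* and *SLC30A1* was −0.64 and that between *MT1X* and *MT2A* was −0.63. *SLC30A1* and *SLC39A10* had an r of 0.74, and *MTF1* had an r of −0.248 to 0.254 with the others. Among the 5 genes most like the summed *MT1* and *MT2A* row, out of 12519 with at least 50 counts on average, were *BAG1* (r = 0.93), *DDX60L* (0.92), *PHETA1* (0.92) and *LMNB2* (0.92). For *MTF1* the r with that row was −0.27. These values are descriptions over 9 libraries that fall into 3 groups and share depth and scaling.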

How the data were processed

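RNA from 9 cultures, described as biological triplicates, was sequenced as paired reads. The sources differ on the library kit (Universal Plus mRNA or SMARTER). Per the labels and methods, the authors trimmed reads with cutadapt 3.4 and Trim Galore 0.6.7, aligned them to GRCh38 with STAR 2.7.9a, and quantified them with Salmon 1.10.1. The deposited gene table holds estimated counts, unnormalized, and the deposited transcript files hold estimated counts, effective lengths and TPM, which the authors scaled to transcript length and depth. Gene TPM was summed from transcripts.

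Estimated counts were rounded, filtered with filterByExpr, scaled by TMM and fitted with edgeR 4.0.16 (R 4.3.3) over all 9 libraries by condition, leaving 15528 genes. Each standard error was taken as log2 fold change over the root of F. No replicate pair agreed within counting noise. Depth was 36649997 to 48019126 counts, and the 3-count limit for a 0 covers counting error only.

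Positions are from GENCODE. Named are all 10 genes, up to 3 called genes per other list and comparison with the smallest adjusted p, and the 5 genes most like the metallothionein sum. Of the genes so chosen, 1 is not reported here, nor is 1 marker. The genes and lists were chosen with earlier results of these data known. Alternatives were DESeq2 1.42.0 or its size factors, limma-voom (limma 3.58.1), other count filters, 6 libraries, TPM-rebuilt counts, each library left out, a replicate block, a threshold of 0.01 and pseudogenes in the sum. Those for list counts were chosen after seeing the data. Scripts were tested on simulated data.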

Additional observations from a re-analysis of the deposited data

How the results depend on the processing

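The call of *SLC30A1* held in every alternative run in both comparisons with attached cells, and the summed *MT1* and *MT2A* row was called in none of the alternatives in any comparison. In suspended against attached vehicle cells the log2 fold change of *SLC30A1* ranged from 0.24 to 0.30 (edgeR, DESeq2 or limma adjusted p from 5.17e-06 to 0.0120), and that of the sum from −0.08 to −0.02. For AT-0174 against vehicle in suspension the sum ranged from −0.04 to −0.02. The *MT2A* call in suspended AT-0174 against attached cells had adjusted p from 0.0209 to 0.185, and besides the libraries named above it was lost without a count filter (0.0822), with 6 libraries (0.0696), with TPM-based counts (0.0789) and at a threshold of 0.01. 

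Counts of called genes were 3297, 121 and 3724 for suspended against attached vehicle, AT-0174 against suspended vehicle, and AT-0174 against attached vehicle. They were 1405, 52 and 1839 at a threshold of 0.01, and 1726, 35 and 2076 with TPM-based counts. For AT-0174 against suspended vehicle, DESeq2 called 214 and the fit without a filter 499. With each library left out in turn the counts were 1935 to 2693, 63 to 86 and 2239 to 3276. The lowest came without attached library 3 for the first comparison (1951 without suspended vehicle library 2), and without AT-0174 library 1 for the others (2381 without attached library 3 in the third). For AT-0174 against suspended vehicle, the count was 66 or 65 without suspended vehicle library 1 or 3, and 68 or 70 without AT-0174 library 2 or 3. The causes were not tested.

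Sign changes were confined to values near 0 that were never called. *MTF1* in AT-0174 against attached cells gave −0.0002 with DESeq2 size factors, −0.0013 with at least 10 counts in every library, −0.0779 with TPM-based counts, and −0.0137 to 0.0243 with libraries left out (negative without attached library 3 or AT-0174 library 1 or 3). It gave −0.0155 for suspended against attached vehicle with TPM-based counts, and 0.0112 for AT-0174 against suspended vehicle without AT-0174 library 2 (−0.0291 to 0.0112 with libraries left out). *MT1X* gave −0.0051 in that comparison without suspended vehicle library 1 (−0.0051 to 0.0910 with libraries left out). TMM and DESeq2 scaling moved the median of all genes by less than 0.01.

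Same-numbered libraries of different groups had correlated deviations of −0.065 to 0.053, so the numbers were not taken as pairs. With a replicate block 3250, 146 and 3677 genes were called, the sum changed by −0.06, −0.03 and −0.09, and no call among the 6 genes changed. *MT1E*, *MT1G*, *MT1M* and *MT3* were too shallow to compare, and *MT1F*, at 137 counts on average, had the widest intervals.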
